A study of Rattus norvegicus with 6 samples.

Results

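Expression of 10 genes for calcium release and uptake was followed across 6 expression arrays of cultured newborn rat heart muscle cells. Their proteins release calcium inside the heart muscle cell or clear it again. In the fit without a replicate block, 0 of the 10 passed the threshold under stretch or under phenylephrine. With the replicate number as a block, 2 passed under phenylephrine and 0 under stretch. That fit called 5384 and 1028 of all 31042 probe sets in the same order. The genes were chosen by symbol: every probe set whose platform annotation gave 1 of the 10 listed symbols was taken, which gave 23 probe sets and all 10 genes, of 31042 probe sets and 14217 named genes tested. The 10 genes are Ryr2, Trdn, Casq2, Hrc, Jph2, Cacna1c, Atp2a2, Pln, Sln and Slc8a1. The cells came from hearts of Wistar rats aged 1 to 2 days, were isolated with pancreatin and collagenase, passed through a Percoll density gradient meant to remove fibroblasts, and cultured in medium with fetal calf serum. The 2 stretch arrays carried RNA of cells that grew for 36 h on a collagen-coated silicone membrane, were kept without serum for 24 h and were then stretched biaxially to 112% for 24 h. Both phenylephrine arrays carried RNA of cells given 50 µmol/l of this α1-adrenergic agonist, a standard hypertrophic stimulus, and no source used here states for how long. The 2 control arrays carried RNA of untreated cells. For cells without stretch, no source used here states the growth surface or the time without serum; the part of the membrane itself in the stretch values was not tested. RNA from several preparations was pooled, per the labels, and no label ties the 2 arrays of a group to separate cultures, so a p-value here reflects array-to-array spread within groups that may be purely technical.

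In a heart muscle cell, each beat begins when calcium enters through L-type channels in the T tubules and opens ryanodine receptors in the facing membrane of the sarcoplasmic reticulum. The released calcium activates the myofilaments and is then pumped back into the reticulum by the ATPase SERCA2 or carried out of the cell by the sodium-calcium exchanger. Phospholamban and sarcolipin restrain the pump, and calsequestrin buffers calcium inside the reticulum. In the newborn rat heart this system is still maturing, and lower expression of the pump gene is a textbook feature of the hypertrophied and failing heart.

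Values below are the deposited log2 signals, and a change is the difference between 2 group means, given with its standard error (SE) from limma fitted across all probe sets. A gene was called changed where the Benjamini-Hochberg adjusted p over all 31042 probe sets was under 0.05, and a gene with several probe sets is represented by the brightest one unless another is named. The 6 arrays had medians of 8.30 to 8.33 log2. Phenylephrine replicate 2 had the narrowest distribution, with an interquartile range of 1.70 log2 against 1.80 to 1.92 on the other 5 arrays. In each group replicate 2 was narrower than replicate 1. The ranges were 1.80 against 1.92 with stretch, 1.70 against 1.89 with phenylephrine and 1.82 against 1.91 in controls. The brightest probe sets of the 10 genes lay between the 90th and the 99.9th percentile of mean signal, so all 10 genes had a signal well above most probe sets.

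The labelled cell type was checked against its markers. Of 8 heart muscle markers 7 were measured, all at or above the 98.8th percentile, and 0 of the 7 was called in any of the 3 comparisons. With phenylephrine against control, 6 of the 7 lay above 0, and the changes ran from -0.34 to 0.28. Without overlap, 4 were higher and 1 lower, against 21.5% and 22.1% of all probe sets. At an unadjusted p under 0.05 limma counted 2 of 7, against 19.4% of named genes. With stretch all 7 overlapped the controls. Markers of other cell types were also read, and some of them differed between the groups. Endothelial and macrophage markers had median percentiles of 44.6 and 54.7. Fibroblast markers were bright, with a median at the 94.9th percentile of mean signal and the lowest of 11 at the 62.3rd. The mean log2 level of 11 fibroblast markers was 10.93 and 10.90 on the stretch arrays, 10.80 and 10.68 on the phenylephrine arrays, and 11.20 and 11.18 on the control arrays; 4 of 11 were called lower with phenylephrine (Col3a1, Pdgfra, Postn and Dpt) and 0 with stretch, while all 11 lay below 0 in both comparisons. With phenylephrine, 2 of 8 endothelial markers (Kdr and Emcn) and 1 of 7 macrophage markers (Cd68) were called lower. Of 8 smooth muscle markers, 4 were called higher (Acta2, Cnn1, Cspg4 and Mcam). The other 4 lay below 0, and 3 of these did not overlap the controls, against 22.1% of all probe sets lower without overlap. With stretch, 1 of 8 smooth muscle markers was higher, Cnn1. The ventricular marker Irx4 fell with phenylephrine, 1 of 4. Among all named genes, 2.41% were called higher and 2.36% lower with phenylephrine, and 0.521% were called with stretch. The mean level of the endothelial markers was 8.59 and 8.57 log2 on the stretch arrays, 8.46 and 8.38 on the phenylephrine arrays, and 8.68 and 8.73 on the control arrays. For smooth muscle markers it was 9.69 and 9.66 with stretch, 10.02 and 9.93 with phenylephrine, and 9.36 and 9.35 in the controls. The 8 skeletal muscle markers ranged from the 0.4th percentile (Myh4) and the 5.3rd (Myod1) to the 98.8th (Myh1) and the 99.6th (Ckm), with a median of 34.7. In limma 0 of 8 were called in any comparison. At an unadjusted p under 0.05 there was 1 for stretch against control, against 7.24% of named genes. For phenylephrine against control there were 2, against 19.4%. The part that these shifts in cell type markers had in the results below was not tested, and in such bulk samples fewer cells of a type and less RNA per cell cannot be told apart.

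Under stretch against control, 0 of 10 genes and 0 of 23 probe sets were called, against 0.521% of all named genes and 0.345% of all probe sets. At an unadjusted p under 0.05 the count was also 0 of 23, against 5.54% of all probe sets. The 10 changes ran from -0.20 (Cacna1c) to 0.13 (Slc8a1), with a median of 0.04 against 0.00 for all named genes. For 9 of 10 genes the 95% interval stayed within 1.5-fold in either direction, and the interval of Trdn reached 1.52-fold. The groups of 2 arrays did not overlap for 5 of 23 probe sets, or 21.7%, against 35.9% of all probe sets.

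Under phenylephrine against control, 0 of 10 genes and 0 of 23 probe sets were called as well, against 4.77% of named genes and 3.6% of probe sets. With the replicate number as a block, 2 genes and 10 of 23 probe sets passed. Both genes were lower with phenylephrine, Trdn (adjusted p = 0.00443 in limma) and Cacna1c (adjusted p = 0.0256). Over all 31042 probe sets, 5384 passed with the block and 1117 without it. Whether replicate numbers mark a shared preparation is not stated in the labels, and the differences between replicates 1 and 2 correlated at 0.49 to 0.67 between groups across probe sets. At an unadjusted p under 0.05, limma without the block counted 8 of 23 probe sets, or 34.8%, against 16.6% of all probe sets. Several of these probe sets read the same gene. By the brightest probe set it was 2 of 10 genes, or 20%, against 19.4% of named genes. The changes ran from -0.46 (Trdn) to 0.27 (Slc8a1), with a median of -0.02 against 0.00 for all named genes. The arrays did not overlap for 15 of 23 probe sets, which is 65.2% against 43.6% of all probe sets. Of these, 6 were higher and 9 lower with phenylephrine, against 21.5% and 22.1% of all probe sets. Every interval of the 10 genes stayed within 2-fold, and those of Trdn and Hrc were the 2 that passed 1.5-fold.

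Between the stimuli, stretch against phenylephrine also gave 0 of 10 genes and 0 of 23 probe sets, against 1.84% of named genes and 1.33% of probe sets. With the replicate block, 2 genes passed, Trdn (adjusted p = 0.00142 in limma) and Hrc (adjusted p = 0.0356), both higher with stretch. Over all 31042 probe sets, 3734 passed with the block and 413 without it. At an unadjusted p under 0.05 there were 8 of 23 in limma without the block, against 12.5% of all probe sets. By the brightest probe set it was 2 of 10 genes, against 2071 of 14217 named genes. The arrays of these groups did not overlap for 12 of 23, or 52.2%, against 38.8% of all probe sets. The 2 comparisons with phenylephrine arrays share those arrays, so their counts are not separate observations.

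**Figure D1:**
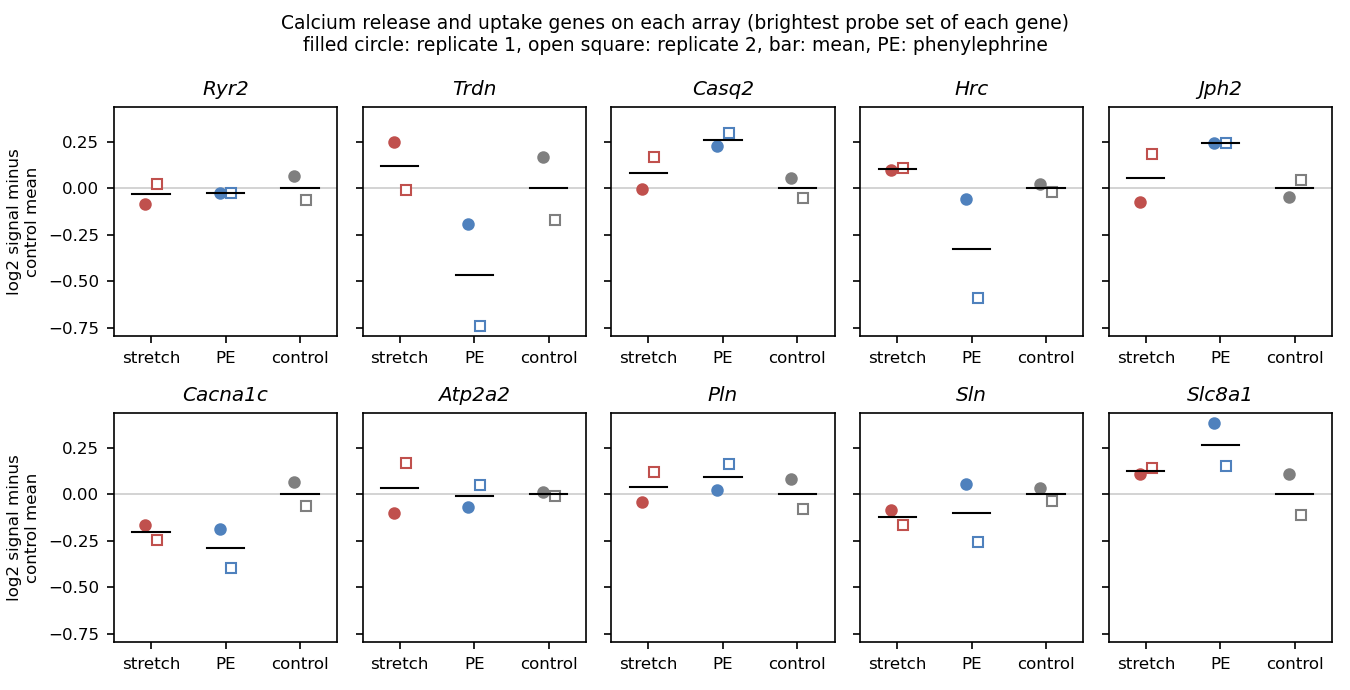
Log2 signal of the brightest probe set of each of the 10 genes on every array, as the difference from the mean of the 2 control arrays, for stretch, phenylephrine (PE) and control cells. Points are single arrays (circle replicate 1, square replicate 2) and bars are means of 2; the lowest points belong to Trdn and Hrc on phenylephrine replicate 2, while Ryr2 and Pln stay within 0.2 log2 of the control mean on all arrays.

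Ryr2, the ryanodine receptor through which the reticulum releases calcium, read alike on all arrays with its brightest probe set. Probe set 1382088_at gave 13.19 and 13.30 log2 in stretched cells, 13.25 and 13.25 with phenylephrine, and 13.34 and 13.21 in controls. The 3 groups overlapped. The change was -0.03 ± 0.10 (SE, n = 2 arrays per group) with stretch, adjusted p = 1, and -0.03 ± 0.10 with phenylephrine, adjusted p = 0.939, both in limma. A second probe set, 1382775_at, split the arrays by replicate number instead: it read 10.25 and 11.69 with stretch, 10.06 and 10.41 with phenylephrine, and 10.31 and 11.59 in controls. Its second array was the higher one in each group, by 1.44, 0.35 and 1.28 log2. With that spread the interval for phenylephrine against control ran from -1.89 to 0.45, so a change up to 3.72-fold could not be told from none.

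Trdn, the anchor protein triadin that ties calsequestrin to the ryanodine receptor, came nearest to the threshold. Its probe set 1370198_at read 10.57 and 10.22 log2 in stretched cells, 9.65 and 9.20 with phenylephrine, and 10.30 and 10.11 in controls. Both phenylephrine arrays lay below all 4 others, and the stretch and control arrays overlapped. Phenylephrine against control gave -0.78 ± 0.18 (SE; unadjusted p = 0.00268, adjusted p = 0.0645 in limma), a signal 1.72-fold lower that did not pass. Stretch against phenylephrine gave 0.97 ± 0.18, with a 95% interval of 1.47 to 2.62-fold and adjusted p = 0.0513, and stretch against control gave 0.19 ± 0.18 with adjusted p = 1.

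The other 3 triadin probe sets had the same order. The brightest, 1370739_x_at, read 11.60 and 11.34 with stretch, 11.16 and 10.61 with phenylephrine and 11.52 and 11.18 in controls, with -0.46 ± 0.21 for phenylephrine against control (adjusted p = 0.32 in limma). Probe set 1370738_a_at, made from the same sequence record and so no separate evidence, read 10.98 and 10.91 with stretch, 10.68 and 10.09 with phenylephrine, and 10.83 and 10.78 in controls. The dimmest, 1371138_at at the 13.7th percentile, gave -0.11 ± 0.07. In all 4 probe sets both phenylephrine arrays lay below both controls, and phenylephrine replicate 2 was the lowest array. Leaving that array out, the change of 1370198_at was -0.56 (adjusted p = 0.185 in limma), and without phenylephrine replicate 1 it was -1.005 (adjusted p = 0.0356), each with a lone phenylephrine array assumed to vary like the other groups. After quantile normalization of the arrays, the same probe set passed in limma, with -0.74 and adjusted p = 0.0109, and with the replicate block it passed with adjusted p = 2.78e-05.

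**Figure D2:**
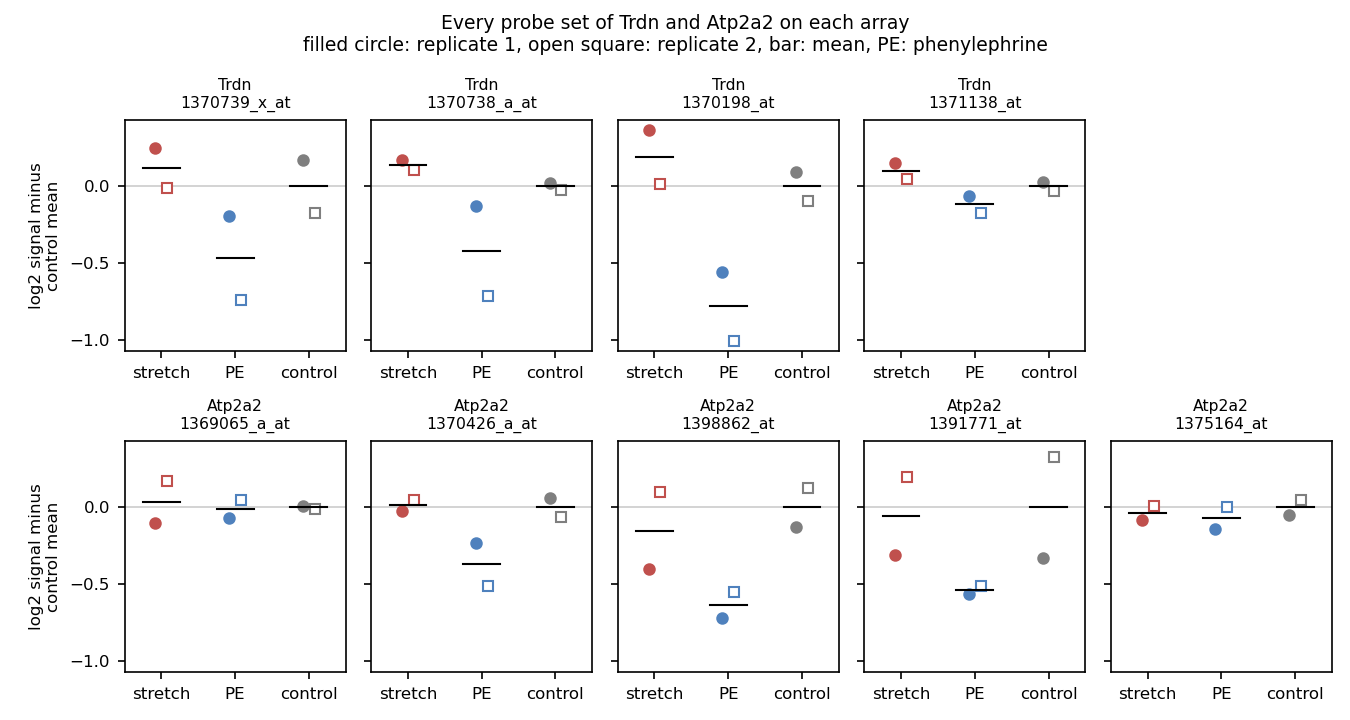
Log2 signal minus the control mean for the 4 probe sets of Trdn and the 5 of Atp2a2 on each array, for stretch, phenylephrine (PE) and control cells; circles are replicate 1, squares replicate 2 and bars the means of 2 arrays. Phenylephrine arrays are lowest in every Trdn panel, while the Atp2a2 probe sets differ among themselves, from -0.01 to -0.64 log2 with phenylephrine.

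Casq2, the cardiac calsequestrin that stores calcium beside the release channel, lay above the controls on both phenylephrine arrays. Probe set 1368988_at read 13.61 and 13.78 log2 in stretched cells, 13.84 and 13.91 with phenylephrine, and 13.67 and 13.56 in controls. The phenylephrine arrays did not overlap either other group, with a change of 0.26 ± 0.10 against control (adjusted p = 0.264 in limma), or 0.11 after quantile normalization (adjusted p = 0.247). The second probe set, 1387401_at, read 12.79 and 12.76 with stretch, 13.13 and 13.07 with phenylephrine, and 12.84 and 12.58 in controls. It gave 0.39 ± 0.12 with phenylephrine (adjusted p = 0.135) and 0.07 ± 0.12 with stretch (adjusted p = 1), and quantile normalization brought the phenylephrine value past the threshold at 0.30 (adjusted p = 0.0268).

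Hrc, a histidine-rich calcium-binding protein of the reticulum lumen that binds triadin and the pump, differed by 1 array. It read 11.41 and 11.42 log2 in stretched cells, 11.25 and 10.72 with phenylephrine, and 11.33 and 11.29 in controls. Phenylephrine replicate 2 stood 0.53 below its partner, while the other pairs agreed within 0.04. The change with phenylephrine was -0.32 ± 0.17 (adjusted p = 0.414 in limma). It was -0.06 without phenylephrine replicate 2, and -0.59 with adjusted p = 0.0393 without replicate 1, so the value rests on that array.

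The triadin and calsequestrin genes encode partners in 1 lumenal complex. Their values lay on opposite sides of the controls with phenylephrine, though neither gene passed in the fit without a replicate block. The promoter windows are shown to set both genes beside each other, and a link of the motifs to these values was not tested. RefSeq promoters (assembly GRCr8) matched 9 of the 10 genes, all but Sln, and each window spans 250 bases before to 50 after the annotated start. The Trdn window lies at chr1:26229550-26229849 on the minus strand, the Casq2 window at chr2:192214306-192214605 on the plus strand and that of Atp2a2, described further on, at chr12:39733269-39733568 on the plus strand. Capitals mark matches on either strand to the E-box CANNTG, the GATA core GATAA, the M-CAT element CATTCC, the MEF2 site or the CArG box, which muscle transcription factors are known to bind.
Trdn: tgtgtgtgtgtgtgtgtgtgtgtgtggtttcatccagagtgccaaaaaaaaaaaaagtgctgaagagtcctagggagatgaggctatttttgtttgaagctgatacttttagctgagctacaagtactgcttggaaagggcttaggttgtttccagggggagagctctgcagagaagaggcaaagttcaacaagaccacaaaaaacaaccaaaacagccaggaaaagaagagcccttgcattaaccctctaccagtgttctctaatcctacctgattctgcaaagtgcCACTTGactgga
Casq2: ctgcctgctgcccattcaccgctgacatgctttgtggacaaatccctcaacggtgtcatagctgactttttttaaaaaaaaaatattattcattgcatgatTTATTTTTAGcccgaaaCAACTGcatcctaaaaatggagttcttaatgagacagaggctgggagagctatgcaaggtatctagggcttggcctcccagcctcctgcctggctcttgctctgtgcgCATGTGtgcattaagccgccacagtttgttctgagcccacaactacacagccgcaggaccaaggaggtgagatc
Atp2a2: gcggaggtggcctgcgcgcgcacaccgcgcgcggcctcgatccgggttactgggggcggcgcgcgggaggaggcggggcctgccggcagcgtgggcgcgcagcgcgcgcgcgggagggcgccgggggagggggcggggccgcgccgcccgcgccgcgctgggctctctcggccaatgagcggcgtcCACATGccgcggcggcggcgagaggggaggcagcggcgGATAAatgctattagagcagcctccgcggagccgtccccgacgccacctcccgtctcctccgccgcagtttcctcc
The Trdn window held 1 E-box, 38 bases after the start. The Casq2 window held 2 E-boxes and a MEF2 site, the latter 149 bases before the start. The Atp2a2 window held 1 E-box and 1 GATA core. Of all 33469 promoters in the table, 72.1% held an E-box, 26.5% a GATA core, 14.2% an M-CAT element, 3.29% a MEF2 site and 1.64% a CArG box. Among the 9 windows of these genes, 7 held an E-box, 4 a GATA core, 1 an M-CAT element (Cacna1c), 1 a MEF2 site and 0 a CArG box. No 2 matches of different motifs overlapped in them. A match of letters is a description of the sequence and no evidence of binding.

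At the junction itself, Jph2 encodes junctophilin 2, which holds the T tubule membrane close to the reticulum. It read 12.10 and 12.36 log2 in stretched cells, 12.42 and 12.42 with phenylephrine, and 12.13 and 12.22 in controls. Both phenylephrine arrays lay above all others, by 0.24 ± 0.12 against control on average (adjusted p = 0.392 in limma), and stretch overlapped control at 0.05 ± 0.12 (adjusted p = 1).

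Cacna1c encodes the pore of the L-type channel, the entry point of trigger calcium. Its brighter probe set, 1370452_at, read 10.78 and 10.70 log2 with stretch, 10.76 and 10.55 with phenylephrine, and 11.01 and 10.88 in controls. Both treated groups lay below both control arrays. The change was -0.20 ± 0.12 with stretch (adjusted p = 1) and -0.29 ± 0.12 with phenylephrine (adjusted p = 0.291 in limma). Under quantile normalization the phenylephrine value passed, at -0.28 with adjusted p = 0.0385, as it did with the replicate block (adjusted p = 0.0256 in limma). The dimmer probe set, 1370451_a_at, did not show the same order: it gave -0.01 ± 0.08 with stretch and 0.01 ± 0.08 with phenylephrine.

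Atp2a2 encodes SERCA2, the pump that returns calcium to the reticulum, and its 5 probe sets did not give 1 answer. The brightest, 1369065_a_at, read 14.40 and 14.67 log2 with stretch, 14.43 and 14.55 with phenylephrine, and 14.51 and 14.49 in controls. All groups overlapped, and the change was 0.03 ± 0.10 with stretch and -0.01 ± 0.10 with phenylephrine (adjusted p = 1 and 0.981 in limma). Quantile normalization moved the phenylephrine value to -0.14 (adjusted p = 0.0983). The 95% interval for phenylephrine on the deposited values ran from -0.25 to 0.23, so a change of more than 1.19-fold in either direction lay outside it on this probe set. The next 3 gave lower values with phenylephrine. Probe set 1370426_a_at read 12.73 and 12.80 with stretch, 12.52 and 12.24 with phenylephrine, and 12.81 and 12.69 in controls. For 1398862_at the values were 10.99 and 11.49 with stretch, 10.67 and 10.84 with phenylephrine, and 11.26 and 11.52 in controls. Probe set 1391771_at gave 8.84 and 9.35 with stretch, 8.59 and 8.64 with phenylephrine, and 8.82 and 9.48 in controls.

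On each of these 3 probe sets both phenylephrine arrays lay below all 4 other arrays. The changes with phenylephrine were -0.37 ± 0.13, -0.64 ± 0.18 and -0.54 ± 0.23, with adjusted p = 0.19, 0.121 and 0.29 in limma, and none passed. With stretch they were 0.01 ± 0.13, -0.15 ± 0.18 and -0.06 ± 0.23, each with adjusted p = 1. The first of them, 1370426_a_at, passed after quantile normalization at -0.42 (adjusted p = 0.00355), and with the replicate block all 3 passed in limma (adjusted p = 0.035, 0.000526 and 0.00435). The fifth probe set, 1375164_at, was dim, at the 33.4th percentile, and gave -0.03 ± 0.07 with stretch and -0.07 ± 0.07 with phenylephrine. The gene is known to give a muscle form and a more widely expressed form by splicing at its 3′ end; no source used here says which form each probe set reads.

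Pln encodes phospholamban, the small membrane protein that restrains SERCA2 until it is phosphorylated. Its brightest probe set, 1370157_at, read 14.47 and 14.63 log2 in stretched cells, 14.53 and 14.67 with phenylephrine, and 14.59 and 14.43 in controls. The groups overlapped, with 0.03 ± 0.10 for stretch and 0.09 ± 0.10 for phenylephrine (adjusted p = 1 and 0.751 in limma). The interval for phenylephrine ran from -0.15 to 0.32. The other probe sets gave -0.01 ± 0.10 and 0.02 ± 0.12 with stretch and 0.11 ± 0.10 and -0.08 ± 0.12 with phenylephrine. All 3 lay within 1.3-fold of no change at the ends of their intervals in both comparisons against control.

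Sln encodes sarcolipin, a related regulator of the pump that is found mainly in the atria of the rodent heart. It read 10.98 and 10.90 log2 with stretch, 11.12 and 10.81 with phenylephrine, and 11.10 and 11.03 in controls. The stretch arrays lay just below both controls, at -0.12 ± 0.13 (adjusted p = 1), and phenylephrine overlapped control at -0.10 ± 0.13 (adjusted p = 0.806 in limma). Of 5 atrial markers measured beside it, 0 was called with stretch and 1 with phenylephrine, the atrial light chain gene Myl4. The shares of all named genes called were 0.521% and 4.77%. Myl4 rose by 0.99 ± 0.15 (adjusted p = 0.0134 in limma). The other 4 atrial markers lay below 0 with phenylephrine, and 2 of these did not overlap the controls, against 22.1% of all probe sets lower without overlap. With stretch, 3 of the 5 were lower and 1 higher without overlap, against 35.9% of all probe sets in either direction.

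Slc8a1 encodes the sodium-calcium exchanger NCX1, which removes calcium from the cell after each beat. Its brighter probe set, 1372449_at, read 13.37 and 13.40 log2 with stretch, 13.64 and 13.41 with phenylephrine, and 13.37 and 13.15 in controls. Both phenylephrine arrays lay above both controls, with 0.27 ± 0.12 (adjusted p = 0.33 in limma), and stretch gave 0.13 ± 0.12 (adjusted p = 1). The second probe set, 1370588_a_at, read 8.79 and 8.40 with stretch, 9.05 and 8.75 with phenylephrine, and 8.61 and 8.29 in controls. It gave 0.46 ± 0.16 with phenylephrine (adjusted p = 0.21) and 0.15 ± 0.16 with stretch (adjusted p = 1). The first array of each group was the higher one on this probe set, by 0.39, 0.30 and 0.32 log2.

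**Figure D3:**
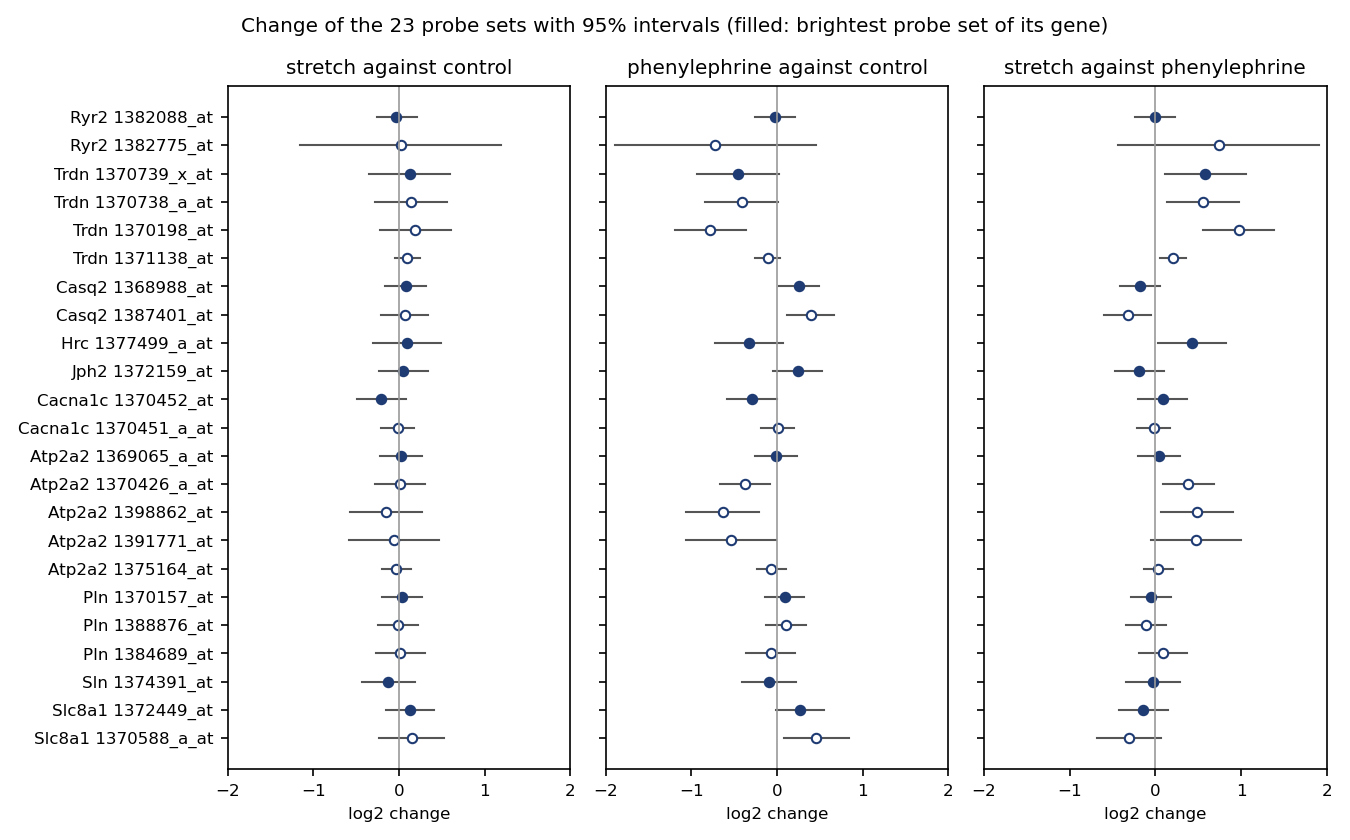
Log2 change of each of the 23 probe sets with its 95% interval from the limma fit, in 3 panels that compare stretch with control, phenylephrine with control and stretch with phenylephrine; filled points mark the brightest probe set of a gene. With stretch the points lie between -0.20 and 0.19, and with phenylephrine they spread from -0.78 (Trdn) to 0.46 (Slc8a1).

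Beyond the 10 genes, 93 further calcium genes were listed in 7 groups by role, and 79 were measured. Against control, 0 of 79 were called with stretch (11 at an unadjusted p under 0.05 in limma, against 7.24% of all named genes), and with phenylephrine 6 rose and 1 fell (19 at an unadjusted p under 0.05, against 19.4% of all named genes). The median change of the 79 was 0.02 with stretch and 0.04 with phenylephrine, against 0.00 for all named genes in both. The shares called among all named genes were 0.521% with stretch and 4.77% with phenylephrine, of which 2.41% higher and 2.36% lower. Without control replicate 1 or control replicate 2 the phenylephrine count of 7 came to 2 or 1. In the 6 fits with 1 array left out, Hspb6 passed in all of them. Casq1, Calu, Cacnb2 and Tcap did not pass without either control array, and Ryr3 did not without control replicate 2.

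Among release channels and their partners, 1 of 14 rose with phenylephrine, Ryr3, a ryanodine receptor form of low abundance in heart. It read 8.00 and 7.95 log2 with stretch, 8.19 and 8.10 with phenylephrine, and 7.75 and 7.63 in controls, a change of 0.45 ± 0.07 (adjusted p = 0.0137 in limma), on a probe set at the 36.5th percentile. With stretch the largest value was that of S100a1, a calcium sensor that binds the release channel, at -0.36 ± 0.14 (adjusted p = 0.756).

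Of 7 genes of the T tubule junction, 1 rose with phenylephrine. This was Tcap, telethonin, a titin cap protein near the T tubules. It read 11.29 and 11.29 log2 with stretch, 12.08 and 11.91 with phenylephrine and 11.27 and 11.26 in controls, with 0.73 ± 0.12 for phenylephrine against control (adjusted p = 0.0167 in limma). Stretch and phenylephrine differed by -0.70 ± 0.12 (adjusted p = 0.0335), a call that passed in 1 of 6 fits with 1 array left out, the one without phenylephrine replicate 2. The largest value with stretch was 0.11 ± 0.07 for the phosphatase gene Mtm1 (adjusted p = 1).

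In the group of pumps, regulators and lumenal buffers 3 of 12 rose with phenylephrine and 0 with stretch. Casq1, the skeletal muscle calsequestrin, read 9.12 and 8.96 log2 with stretch, 9.90 and 9.48 with phenylephrine, and 8.70 and 8.72 in controls, a rise of 0.98 ± 0.14 (adjusted p = 0.0118 in limma). Its stretch arrays also lay above both controls, at 0.33 ± 0.14 (adjusted p = 0.885). Hspb6, a small heat shock protein reported to act on phospholamban dephosphorylation, read 13.01 and 13.06 with stretch, 13.54 and 13.41 with phenylephrine and 12.63 and 12.60 in controls, and rose by 0.86 ± 0.10 with phenylephrine (adjusted p = 0.00546). Calu, the calcium-binding lumenal protein calumenin, rose by 0.77 ± 0.11 with phenylephrine (adjusted p = 0.0121) and was lower with stretch than with phenylephrine by -0.72 ± 0.11 (adjusted p = 0.029), a call that also passed in 1 of 6 fits with 1 array left out, with adjusted p between 0.0441 and 0.234. With stretch against control, the largest value of this group was that of Hspb6, 0.42 ± 0.10 (adjusted p = 0.285).

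Of 16 voltage-gated channel subunits and small G protein inhibitors of the channel, 1 rose with phenylephrine and 0 changed with stretch. Cacnb2, the β subunit that brings the L-type pore to the membrane, read 10.43 and 10.35 log2 with stretch, 11.36 and 11.24 with phenylephrine, and 10.58 and 10.49 in controls. It rose by 0.77 ± 0.11 with phenylephrine (adjusted p = 0.0129 in limma) and was lower with stretch than with phenylephrine by -0.91 ± 0.11 (adjusted p = 0.0137). Rrad, a small G protein that inhibits the channel through that subunit, ran the other way: 13.24 and 13.31 with stretch, 12.54 and 12.47 with phenylephrine, and 12.99 and 12.80 in controls. Stretch was higher than phenylephrine by 0.77 ± 0.11 (adjusted p = 0.022), while neither stimulus passed against control, at 0.38 ± 0.11 with stretch (adjusted p = 0.477) and -0.39 ± 0.11 with phenylephrine (adjusted p = 0.115). Gem, of the same family, had the largest value with stretch, 0.82 ± 0.16 (adjusted p = 0.136).

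Stim1, the reticulum sensor that opens store-operated entry, was the single fall, 1 of 10 genes of that group. It read 8.91 and 8.90 log2 with stretch, 8.72 and 8.49 with phenylephrine and 9.19 and 9.13 in controls, and fell by 0.56 with phenylephrine (SE 0.10; adjusted p = 0.0236 in limma), and it passed in 1 of 6 fits with 1 array left out, the one without phenylephrine replicate 1, with adjusted p between 0.0163 and 0.145 over the 6. With stretch it had -0.26 ± 0.10 (adjusted p = 0.741). Of 10 plasma membrane exchangers and pumps 0 were called in limma, with 3 at an unadjusted p under 0.05 with phenylephrine, against 19.4% of named genes, and 1 with stretch, against 7.24%. The largest values there were those of the sodium pump subunit gene Atp1b1 with phenylephrine, 0.33 ± 0.11, and of the calcium pump gene Atp2b1 with stretch, 0.28 ± 0.12. Mitochondrial calcium genes gave 0 of 10 in limma, with 1 at an unadjusted p under 0.05 for phenylephrine and 0 for stretch, and the largest values were -0.37 ± 0.17 for Mcur1 with phenylephrine and 0.12 ± 0.10 for Mcub with stretch.

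Between the stimuli, 1 of the 79 genes was higher with stretch (Rrad) and 3 were lower (Cacnb2, Tcap and Calu), against 0.999% and 0.837% of named genes. Where no gene of a group passed, the largest values were -0.28 ± 0.12 for Calm2, a calmodulin gene, -0.21 ± 0.11 for Fxyd1, the sodium pump regulator phospholemman, 0.30 ± 0.10 for Stim1 and 0.30 ± 0.17 for Mcur1. Cacnb2 and Rrad did not pass without either stretch array, nor Rrad without phenylephrine replicate 2. Leaving out either stretch array, the count of 4 came to 0, and it was 2 without either control array or without phenylephrine replicate 1.

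**Figure D4:**
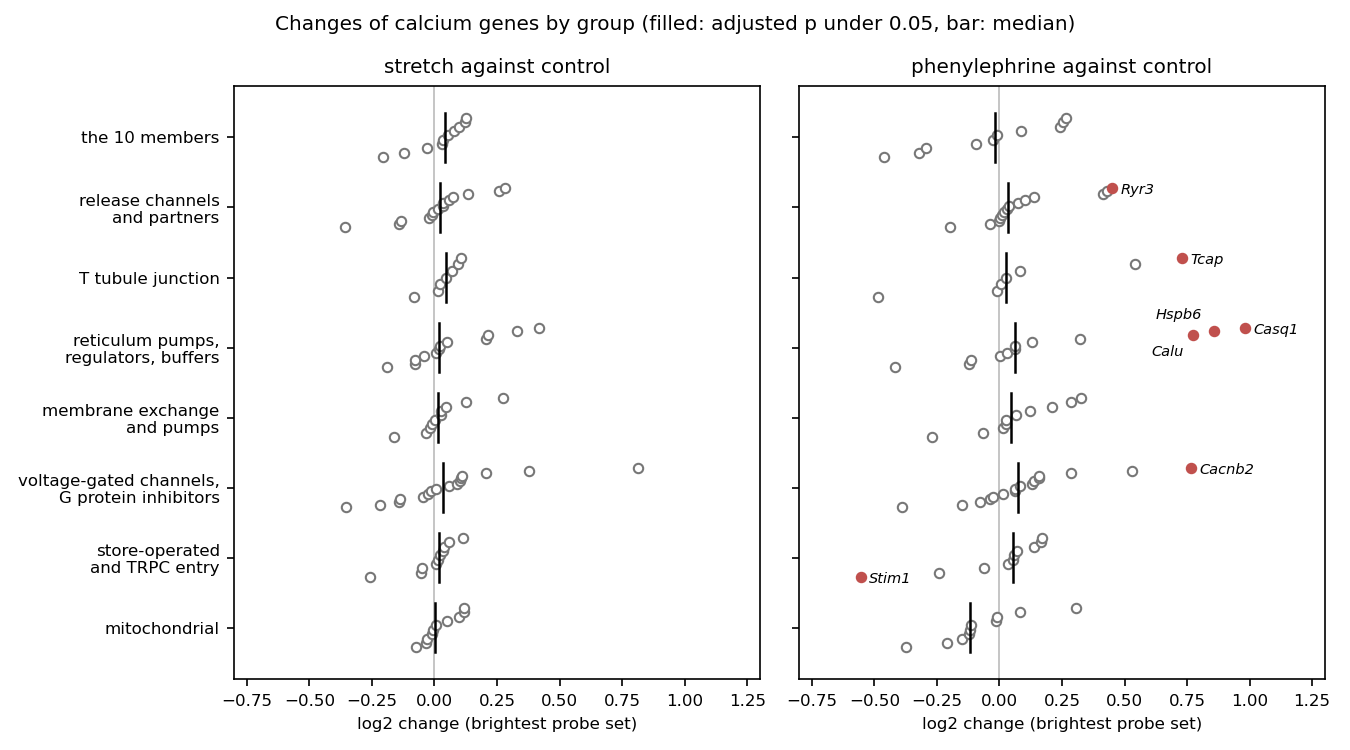
Log2 change of the 10 genes and of 79 further calcium genes by group, for stretch against control and phenylephrine against control, with 1 brightest probe set per gene. Filled points passed an adjusted p of 0.05 in limma and bars are medians; with stretch no point is filled, and with phenylephrine 7 are, 6 to the right of 0 and Stim1 to the left.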

How the data were processed

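Per the labels, cRNA made by in vitro transcription was hybridized to 1 Affymetrix array per sample. The deposited table holds 1 value per probe set and array, taken as log2 expression from its range; how the authors summarised and normalized it is not given in the sources used here. Of 31099 rows, 57 control probe sets were left out. Symbols came from the platform annotation of 2016, and all 23 probe sets matched the same RefSeq GRCr8 symbol by Entrez identifier.

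All 6 arrays entered a single limma model (version 3.58.1, R 4.3.3) with 1 mean for each group (lmFit, then eBayes with a variance trend; 3 residual and 4.8 prior degrees of freedom). Tests were two-sided. The smallest p of an exact permutation test of 2 against 2 arrays is 0.333, so none was run. The fit was tested on simulated data. Precision is limited by the small number of arrays.

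The members, lists and tests were chosen with earlier results of these data known. Named were all 10 genes with every probe set and, per wider list and comparison, up to 4 called genes with the largest change, or else the gene with the largest change; the values of such a gene in other comparisons were added after the values were seen. The genes most like a called member were also to be named, but no member was called. Alternatives were quantile normalization, no variance trend, a robust prior, a filter at the 25th percentile, the 4 arrays compared, other ways to represent a gene, a replicate block and leaving out each array; those for the wider list were chosen after seeing the data.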

Additional observations from a re-analysis of the deposited data

How the results depend on the processing

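The absence of calls among the 10 genes under stretch against control held under every alternative run, also where any called probe set counted for its gene. Against control, phenylephrine gave 1 gene after quantile normalization (Cacna1c, lower), and between 0 and 1 when an array was left out, the 1 being Hrc without phenylephrine replicate 1. Stretch against phenylephrine likewise gave 0 to 1, Hrc without that array. Of 855 changes of these probe sets under alternatives, 759 kept direction and side of the threshold, 35 newly passed and 61 changed sign. Of those that changed sign, 6 had a change over 0.1 log2. Of those that newly passed, 20 did so with the replicate block and 7 after quantile normalization. The robust prior and the filter at the 25th percentile each gave 1. No call could be lost, as 0 of 23 probe sets passed in the fit without a block in any comparison. Sign could not turn where an alternative left the estimate unchanged, as without the variance trend, so the tally is no measure of stability.

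With the replicate number as a block, 2 of the 10 genes passed for phenylephrine against control (Trdn and Cacna1c, lower), 0 for stretch against control and 2 for stretch against phenylephrine (Trdn and Hrc, higher). Over all probe sets the replicate block gave 5384, 1028 and 3734 calls for phenylephrine against control, stretch against control and stretch against phenylephrine, and all 1117, 107 and 413 calls without it were among them. The wider list gave 22, 4 and 13. The difference between replicates 1 and 2 correlated at 0.53, 0.49 and 0.67 between groups across probe sets, and no label says what a shared number stands for.

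Quantile normalization gave 2790, 386 and 1527 probe sets and 17, 4 and 8 wider genes in the same order. The fit to only the 4 arrays compared gave 661 probe sets for phenylephrine and 230 between stimuli, and 2 wider genes between stimuli. Leaving out 1 array gave 189 to 1249 probe sets for phenylephrine, 26 to 112 for stretch and 51 to 473 between stimuli, with 1 to 7, 0 and 0 to 4 wider genes. The cause of these shifts was not tested, though a fit to fewer arrays has fewer degrees of freedom.

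Sign changes after quantile normalization were all small: for stretch against control Atp2a2 1369065_a_at (-0.025) and 1370426_a_at (-0.04), Casq2 1368988_at (-0.034), Pln 1370157_at (-0.036) and Ryr2 1382775_at (-0.028); for phenylephrine against control Pln 1370157_at (-0.039) and 1388876_at (-0.024); and for stretch against phenylephrine Pln 1370157_at (0.003) and Ryr2 1382088_at (0.05). Averaging a gene's probe sets turned Atp2a2 to -0.04 for stretch against control and Ryr2 to 0.37 for stretch against phenylephrine. Leaving out 1 array in turn reversed these values, given with their lowest and highest. For stretch against control they were Atp2a2 1369065_a_at (-0.103 to 0.161), Atp2a2 1370426_a_at (-0.044 to 0.071), Atp2a2 1375164_at (-0.08 to 0.017), Atp2a2 1391771_at (-0.391 to 0.274), Atp2a2 1398862_at (-0.403 to 0.1), Cacna1c 1370451_a_at (-0.095 to 0.068), Casq2 1368988_at (-0.008 to 0.165), Casq2 1387401_at (-0.06 to 0.196), Jph2 1372159_at (-0.076 to 0.183), Pln 1370157_at (-0.047 to 0.112), Pln 1384689_at (-0.126 to 0.159), Pln 1388876_at (-0.11 to 0.097), Ryr2 1382088_at (-0.091 to 0.036), Ryr2 1382775_at (-0.701 to 0.74), Slc8a1 1370588_a_at (-0.045 to 0.341), Trdn 1370739_x_at (-0.046 to 0.294). For phenylephrine against control they were Atp2a2 1369065_a_at (-0.071 to 0.05), Atp2a2 1375164_at (-0.137 to 0.003), Cacna1c 1370451_a_at (-0.075 to 0.088), Pln 1384689_at (-0.218 to 0.067), Ryr2 1382088_at (-0.09 to 0.037), Sln 1374391_at (-0.25 to 0.061). For stretch against phenylephrine they were Atp2a2 1369065_a_at (-0.093 to 0.172), Atp2a2 1375164_at (-0.034 to 0.106), Cacna1c 1370451_a_at (-0.089 to 0.05), Cacna1c 1370452_at (-0.019 to 0.196), Pln 1370157_at (-0.134 to 0.025), Pln 1384689_at (-0.021 to 0.204), Ryr2 1382088_at (-0.057 to 0.055), Sln 1374391_at (-0.184 to 0.127).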

Other observations

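On most probe sets of these genes, including every one of Trdn, the 2 arrays of a group differed in the same direction in all 3 groups. Replicate 2 was higher than replicate 1 on Ryr2 1382775_at by 1.44 log2 with stretch, 0.35 with phenylephrine and 1.28 in controls. On Atp2a2 1391771_at it was higher by 0.52 with stretch, 0.06 with phenylephrine and 0.67 in controls, and on Atp2a2 1398862_at by 0.50, 0.17 and 0.26 in that order. Trdn 1370739_x_at ran the other way, at -0.26 with stretch, -0.55 with phenylephrine and -0.34 in controls. What the replicate numbers stand for is not given in the sources used here.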
